A study of Mus musculus with 12 samples.

Results

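The MHC class II presentation genes were followed in RNA from whole mouse adrenals, in 12 libraries. The members are 8 genes out of the 39017 in the count table, chosen by their names: the class II chains *H2-Aa*, *H2-Ab1* and *H2-Eb1*, the peptide exchange genes *H2-DMa*, *H2-DMb1* and *H2-DMb2*, the invariant chain *Cd74* and the transactivator *Ciita*. All 8 were found and all 8 passed the filter on low counts that left 14953 genes for testing. The 6 control mice (Ctrl) had the genotype ASCre/+, and the 6 βCat-GOF mice were bigenic, ASCre/+ ::Ctnnb1fl(ex3)/+. All were females of 10 to 11 weeks on a mixed sv129-C57Bl/6 background. Both groups therefore carry 1 copy of ASCre, a Cre placed in the aldosterone synthase gene, which is active in the zona glomerulosa (zG), the outer cortical layer. In βCat-GOF mice this Cre removes an exon of 1 *Ctnnb1* allele and so stabilizes β-catenin. The study asked which transcripts change when β-catenin is stabilized in these cells. Glands were trimmed of fat and used whole, so each value averages cortex, medulla, capsule, vessels and the leukocytes in them, and fewer cells of a type cannot be told apart from less RNA per cell.

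Class II molecules are heterodimers of an α and a β chain that show peptides from the endosomes to CD4 T cells. Dendritic cells, macrophages and B cells make them constantly, and many other cells do so after interferon-γ. The invariant chain CD74 guides new dimers to the endosomes and blocks their groove until cathepsins degrade it, and the DM heterodimer then exchanges the remaining fragment for peptide. CIITA, which does not bind DNA itself, switches these genes on by docking to the proteins (RFX, CREB and NF-Y) that sit on the X and Y boxes of their promoters.

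The 6 MHC-linked members lie within 197.1 kb of chromosome 17 (GRCm38, 34119541 to 34316674), in the order *H2-DMa*, *H2-DMb2*, *H2-DMb1*, *H2-Ab1*, *H2-Aa* and *H2-Eb1*. RefSeq promoter windows of GRCm38.p6 were at hand for 5 of the 8 members, in 6 windows. Each runs from 250 bases before to 50 bases after a RefSeq start. Below, the start means this RefSeq start, which can differ from the gene positions given here, taken from GENCODE. The *H2-DMb2* and *H2-DMa* windows lie inside those genes, which begin at 34143307 and 34119541 in GENCODE. The windows were searched on both strands for an X box core (ACNGATG), a Y box core (ATTGG) and the interferon-γ element TTCNNNGAA, letters that do not overlap one another. The pair sought was an X core followed by a Y core on the same strand, with 10 to 30 bases between them. It occurred on the strand of the gene in 3 of these members. On either strand it occurred in 52 of 32851 mouse promoter windows (0.158%). Single cores were common, the X core in 9.85% of all windows, the Y core in 37.4% and the interferon-γ element in 8.3%. The sequences below are shown because they hold matches to the cores of the boxes through which *Ciita* acts. They are written 5′ to 3′ on the strand of the gene, with X and Y cores of that strand in capitals. The windows are chr17:34287774-34288073 (minus strand) for *H2-Aa*, chr17:34305617-34305916 (plus) for *H2-Eb1*, chr17:34152941-34153240 (plus) for *H2-DMb1* and chr17:34144999-34145298 (plus) for *H2-DMb2*.
H2-Aa: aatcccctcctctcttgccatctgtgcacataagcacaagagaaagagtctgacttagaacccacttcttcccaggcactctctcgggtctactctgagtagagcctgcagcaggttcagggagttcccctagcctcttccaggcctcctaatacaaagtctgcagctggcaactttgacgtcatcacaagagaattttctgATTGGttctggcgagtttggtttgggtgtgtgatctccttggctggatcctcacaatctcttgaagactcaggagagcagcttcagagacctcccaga
H2-Eb1: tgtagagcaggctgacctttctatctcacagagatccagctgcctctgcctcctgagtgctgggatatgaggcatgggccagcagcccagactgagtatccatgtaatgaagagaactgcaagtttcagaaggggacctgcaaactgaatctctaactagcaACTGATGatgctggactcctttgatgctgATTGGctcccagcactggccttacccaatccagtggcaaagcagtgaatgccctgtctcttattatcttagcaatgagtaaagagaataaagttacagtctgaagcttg
H2-DMb1: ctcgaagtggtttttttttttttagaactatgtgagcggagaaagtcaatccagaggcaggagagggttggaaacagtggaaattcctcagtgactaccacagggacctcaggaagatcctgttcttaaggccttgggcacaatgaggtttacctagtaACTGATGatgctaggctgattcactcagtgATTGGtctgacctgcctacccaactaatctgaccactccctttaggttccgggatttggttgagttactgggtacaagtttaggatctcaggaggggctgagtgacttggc
H2-DMb2: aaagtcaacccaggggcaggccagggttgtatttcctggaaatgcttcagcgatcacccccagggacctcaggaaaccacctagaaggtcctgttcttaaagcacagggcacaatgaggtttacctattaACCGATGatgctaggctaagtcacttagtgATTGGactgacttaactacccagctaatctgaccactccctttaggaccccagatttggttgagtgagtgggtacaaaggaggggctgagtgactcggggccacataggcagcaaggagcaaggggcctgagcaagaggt
In *H2-Eb1* the X core began 88 bases and the Y core 59 bases before the start, with 22 bases between them, and a second Y core lay on the opposite strand at 35 bases. In *H2-DMb1* they began 91 and 61 bases before the start, and in *H2-DMb2* 120 and 90 bases, each with 23 bases between. The *H2-Aa* window held a Y core at 48 bases and a match to this X core only on the opposite strand, at 232 bases. The search can miss an X box of other letters, so this does not show that *H2-Aa* lacks one. The *H2-DMa* windows held 1 Y core, in the window that starts at 34125268, 198 bases before the start. The interferon-γ element was found in the *H2-DMb2* window alone, at 218 bases. The pair is not particular to class II. Among the 50 genes that hold it on either strand, 4 were class II genes (the 3 members and *H2-Eb2*, another β chain gene of the region). Another 6 were class I genes (*H2-D1*, *H2-M3*, *H2-M10.4*, *H2-Q4*, *H2-Q6* and *H2-Q7*). The strand of the pair was not recorded for genes outside the members. These matches describe letters, not bound sites.

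Before the members are compared, some libraries need a description. Between 13484675 and 25625494 reads per library were counted on genes, so the floor of 3 counts lay at 0.117 to 0.222 CPM (a count relative to its library's total). *Star*, the cholesterol carrier of steroid synthesis, and *Chga* and *Th*, of the medulla, marked every library as adrenal. *Ctnnb1*, the targeted gene, was at 21625 ± 858 normalized counts in Ctrl and 21397 ± 1151 in βCat-GOF (SD, n = 6 each), and since only an exon is removed, this gene total does not check the labels. The labels of 3 pairs of libraries share a stem (1367-1 and 1367-1-2, 1367-5 and 1367-5-2 among Ctrl, 1369-2 and 1369-2ear among βCat-GOF). The labels do not say what the stem stands for, so p-values measure the spread between these libraries. One βCat-GOF label, 1387-8, begins with a number that no other has.

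The class II region also separated the βCat-GOF libraries. *H2-Ea-ps* (chromosome 17, 34341959 to 34344645, minus strand), the α chain gene that pairs with *H2-Eb1*, is annotated as a polymorphic pseudogene and is known to be silent in strains such as C57BL/6, whose copy lacks its promoter. It had 1263 counts in 1369-2ear, 857 in 1369-2, 486 in 1369-3 and 288 in 1369-8. It had 0 counts in 1369-4 and in 1387-8, 1 count in 1 Ctrl library and 0 in the other 5, where 0 allows up to 3 counts. *H2-Q1*, a class I gene further along the region, had 8 to 38 counts in the same 4 libraries and 0 to 2 in the other 8. The H2 haplotype of the mice is not given in the sources used here, and its part in the results, or in how well the reads of a mouse match the mm10 copies of the members, was not tested. The group comparison of the members, their ratios to *Cd74* and the calls among listed genes are therefore also given without these 4 libraries, which leaves 2 βCat-GOF libraries, a choice made after the data were seen. The ratios to leukocyte genes and the relations within a group are given with all 12 libraries.

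All 8 members had a lower fitted level in βCat-GOF than in Ctrl adrenals, with log2 fold changes from -0.94 (*Ciita*) to -0.26 (*H2-DMa*) and a median of -0.51, where the median of all tested genes was 0.0001 and 50.0% of them were lower. By edgeR's quasi-likelihood test with Benjamini-Hochberg adjustment, 0 of 8 passed the study's cut-offs (fold change above 1.4, adjusted p under 0.05, base mean above 100), against 0.869% of all genes that were lower past them. At an unadjusted p under 0.05, 4 of 8 were lower (*H2-Aa*, *H2-Eb1*, *H2-DMb1* and *Ciita*), against 10.7% of all genes. The members vary together across libraries, as described further below, so these counts are not of independent genes. DESeq2 and limma-voom also called 0, with 4 and 5 members at an unadjusted p under 0.05. In no member did every βCat-GOF library lie below every Ctrl library, an arrangement that 1.16% of all genes showed. The base mean was above 100 in 6 members and below it in *Ciita* and *H2-DMb2*.

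**Figure D1:**
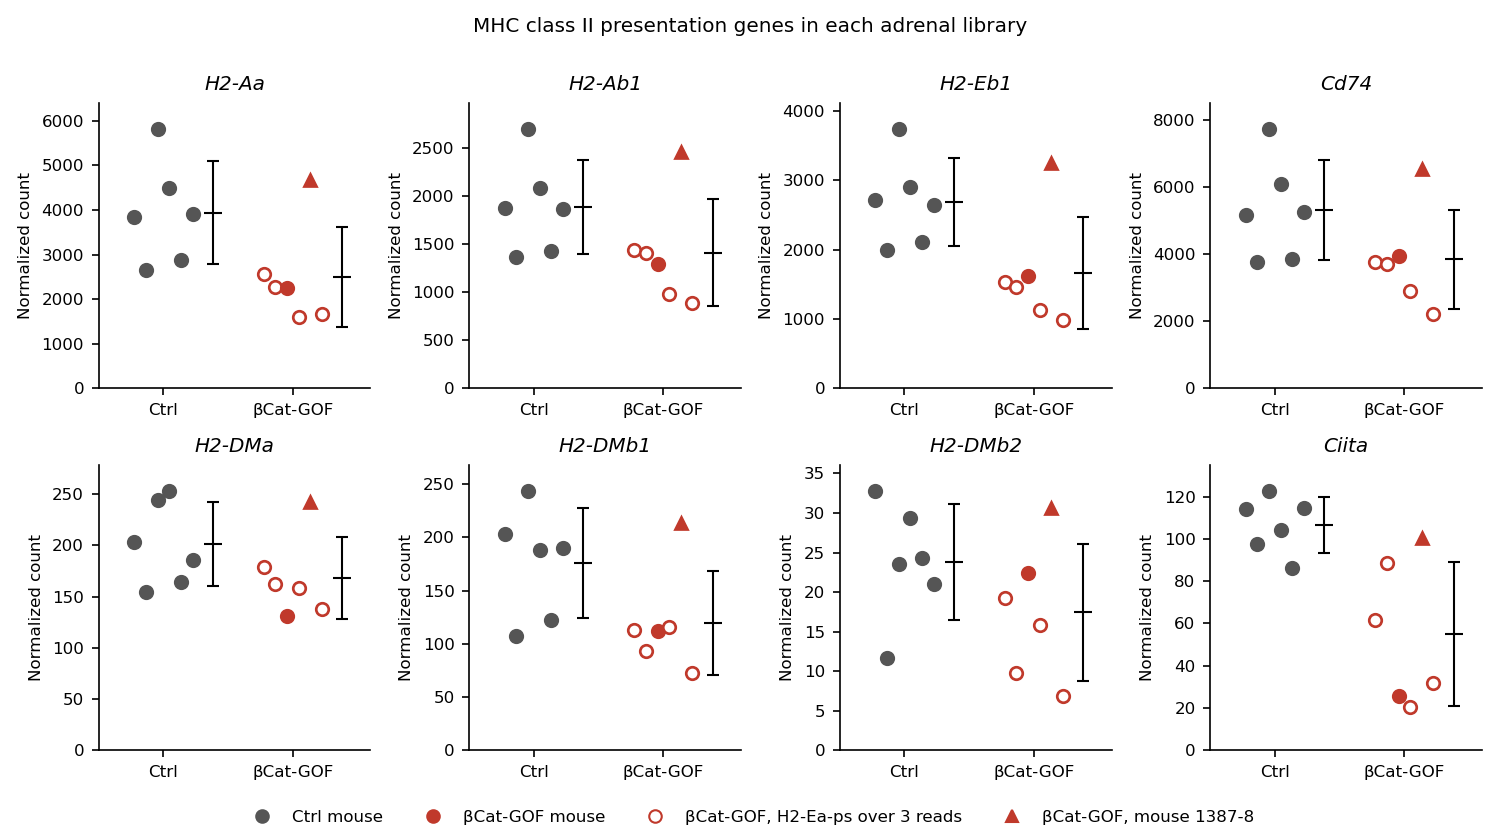
Normalized counts (vertical axes, from 0) of the 8 class II presentation genes in each library of Ctrl (grey, n = 6) and βCat-GOF (red, n = 6) adrenals, with the mean ± SD as a bar beside each group. Open circles are the 4 libraries with *H2-Ea-ps* reads and the triangle is 1387-8, which is the highest βCat-GOF library in all 8 panels.

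The 3 chain genes encode the surface dimers, *H2-Aa* and *H2-Ab1* the α and β chains of I-A and *H2-Eb1* the β chain of I-E. Normalized counts of *H2-Aa* (chromosome 17, 34282744 to 34287823, minus strand) ranged from 2661 to 5821 in Ctrl with a median of 3884, and from 1602 to 4664 in βCat-GOF with a median of 2255. In βCat-GOF 5 of 6 libraries lay below every Ctrl library, and the sixth, 1387-8, lay above all Ctrl libraries but 1. The log2 fold change was -0.66 ± 0.25 (SE; adjusted p = 0.16 by edgeR). *H2-Eb1* (chromosome 17, 34305867 to 34316674, plus strand), whose promoter is shown above, had a lowest, median and highest count of 1995, 2683 and 3741 in Ctrl and of 990 (989.7), 1498 and 3241 in βCat-GOF. Again the same 5 βCat-GOF libraries were below every Ctrl library, and the log2 fold change was -0.70 ± 0.25 (SE; adjusted p = 0.14 by edgeR). *H2-Ab1* (chromosome 17, 34257689 to 34269419, plus strand) overlapped more: it ran from 1364 to 2705 in Ctrl, median 1876, and from 893 to 2462 in βCat-GOF, median 1357 (1356.5). Only 3 βCat-GOF libraries were below all Ctrl libraries, and the log2 fold change was -0.42 ± 0.23 (SE; adjusted p = 0.32 by edgeR). An exact permutation test of the mean log2 normalized counts, two-sided and unadjusted, whose smallest possible p is 0.0022, gave p = 0.019 for *H2-Eb1*, 0.039 for *H2-Aa* and 0.095 for *H2-Ab1*.

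*Cd74*, the invariant chain gene and the most abundant member per length, lies on chromosome 18 (60803848 to 60812652, plus strand). Its normalized counts ran from 3758 to 7750 (7750.1) in Ctrl with a median of 5226, and from 2221 to 6548 in βCat-GOF with a median of 3747. The groups overlapped, with 3 βCat-GOF libraries below every Ctrl library. The log2 fold change was -0.47 ± 0.23 (SE; adjusted p = 0.27 by edgeR, exact permutation p = 0.095).

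The DM genes, whose product loads peptide and stays inside the cell, were far less abundant. *H2-DMa* (chromosome 17, 34119541 to 34139101, plus strand) ran from 154 to 253 normalized counts in Ctrl, median 194.5, and from 132 to 242.5 in βCat-GOF, median 160.0. It was the member with the smallest difference, at a log2 fold change of -0.26 ± 0.18 (SE; adjusted p = 0.43 by edgeR). *H2-DMb1* (chromosome 17, 34153072 to 34160230, plus strand) ran from 107.5 to 244 in Ctrl and from 72.3 to 214 in βCat-GOF, with a log2 fold change of -0.56 ± 0.26 (SE; adjusted p = 0.24 by edgeR). *H2-DMb2* (chromosome 17, 34143307 to 34151555, plus strand) was the scarcest, from 11.7 to 32.8 in Ctrl and from 6.89 to 30.6 in βCat-GOF, on 6 to 35 reads per library, with a log2 fold change of -0.44 ± 0.34 (SE; adjusted p = 0.50 by edgeR). The groups overlapped in all 3 DM genes, with 2 βCat-GOF libraries below every Ctrl library in each, and the exact permutation p was 0.17, 0.082 and 0.19. The β genes are near copies: 1081 bases of the longest *H2-DMb1* transcript (77.0% of it) match *H2-DMb2* at 95.7% identity, so with unique reads only, the split between them is uncertain. Exons of *Brd2*, on the other strand, overlap 10.4% of the *H2-DMa* exons, and whether counting used the strand is not given in the sources used here.

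*Ciita* (chromosome 16, 10480059 to 10528418, plus strand), the transactivator of the other members, had the largest fitted difference. In Ctrl it was even between mice, from 86.2 to 123 normalized counts with a median of 109, a coefficient of variation of 12.5%. In βCat-GOF it ran from 20.6 to 100.5 with a median of 47.0 and a coefficient of variation of 62.0%. All 6 βCat-GOF libraries were below the Ctrl median and 4 were below every Ctrl library, while 1369-2 and 1387-8, at 88.7 and 100.5, lay among the Ctrl values. The log2 fold change was -0.94 ± 0.34 (SE; adjusted p = 0.14 by edgeR, exact permutation p = 0.011, unadjusted). Of its exons, 3.5% are overlapped by *Dexi* on the other strand.

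Per kilobase of exon, the order of the Ctrl levels was *Cd74*, *H2-Eb1*, *H2-Aa*, *H2-Ab1*, *H2-DMb1*, *H2-DMa*, *H2-DMb2* and *Ciita*. *Cd74* stood at 3170 (3170.0) ± 887 normalized counts per kilobase (SD, n = 6), and its lowest Ctrl value, 2238, was above the highest of *H2-Eb1*, 1924. The 3 chain genes followed at 1381 ± 323.5 for *H2-Eb1*, 1037 ± 303 for *H2-Aa* and 736 ± 190.0 for *H2-Ab1*, and these neighbours overlap in their spread between mice. The DM genes were lower, at 105 ± 30.6 for *H2-DMb1*, 58.3 ± 11.9 for *H2-DMa*, which overlaps it, and 13.6 ± 4.19 for *H2-DMb2*, and *Ciita* was at 11.2 ± 1.39, within the spread of *H2-DMb2*. In βCat-GOF the order was the same, from 2297 ± 878 for *Cd74* to 5.76 ± 3.58 for *Ciita*. Exon length here is the union over all annotated transcripts, which understates the level of a gene with long rare exons.

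One library decided which members could be called. The mouse 1387-8 was the highest of the 6 βCat-GOF libraries in all 8 members, and at the other end 1369-3 was the lowest in 5, 1369-8 in 2 and 1369-4 in 1. Without 1387-8, *H2-Eb1* was lower by a log2 fold change of -0.99 ± 0.18 (SE; adjusted p = 0.011 by edgeR) and *H2-Aa* by -0.93 ± 0.20 (SE; adjusted p = 0.028), both past the cut-offs that 0.53% of all genes passed in this direction. *Ciita* then stood at -1.19 ± 0.33 (adjusted p = 0.08), *H2-DMb1* at -0.79 (adjusted p = 0.084), *H2-Ab1* at -0.64 (adjusted p = 0.091) and *Cd74* at -0.68 (adjusted p = 0.098). The reverse held without the 4 libraries with *H2-Ea-ps* reads. The median log2 fold change of the members then was -0.12, none had an unadjusted p under 0.05, and *H2-Ab1* and *Cd74* were at -0.02 ± 0.28 and -0.03 ± 0.28. *Ciita* kept the lowest value, at -0.76 ± 0.41 (adjusted p = 0.3), and *H2-DMb2* changed sign, to 0.14 ± 0.38. That fit rests on 1369-4 and 1387-8 alone, and 1387-8 is the highest βCat-GOF library in every member. The library 1369-4 lay below every Ctrl library in *H2-Aa* (2247.6 normalized counts), *H2-Ab1*, *H2-Eb1*, *H2-DMa* and *Ciita* (25.9). It lay among the Ctrl values in *H2-DMb1*, *H2-DMb2* and *Cd74* (3965.5). The part of the absence of *H2-Ea-ps* reads, and that of the level of 1387-8, in this fit was not tested.

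**Figure D2:**
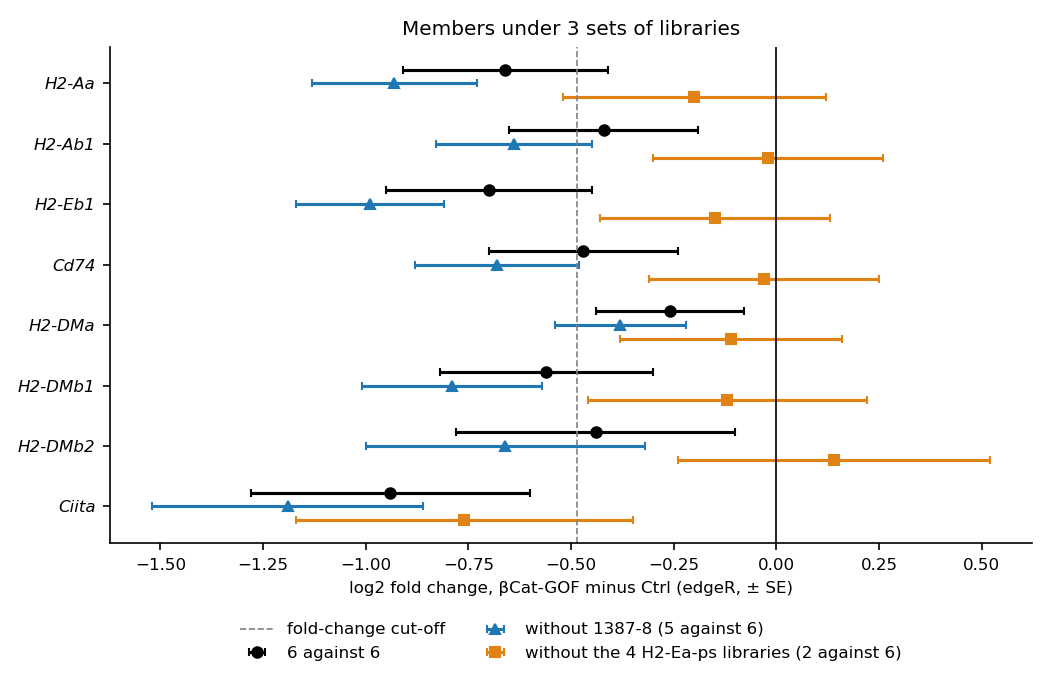
Log2 fold change of each member, βCat-GOF minus Ctrl (horizontal axis, edgeR, ± SE), with all 12 libraries (circles), without 1387-8 (triangles) and without the 4 libraries with *H2-Ea-ps* reads (squares). The dashed line is the fold-change cut-off of 1.4. Leaving out 1387-8 moves every member to a lower value, and leaving out the 4 libraries moves every member towards or past 0.

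A ratio within a library does not depend on the size factor, so each member was set against *Cd74*, which lies on another chromosome (7 ratios, chosen after the data were seen). In Ctrl the *H2-Aa* to *Cd74* ratio was nearly constant, from 0.708 to 0.751, while in βCat-GOF it ran from 0.551 to 0.746, with 4 libraries below every Ctrl library. The log2 difference was -0.21 ± 0.07 (SE; exact permutation p = 0.024, adjusted p = 0.084 over the 7 ratios). The *H2-Eb1* to *Cd74* ratio ran from 0.476 to 0.544 in Ctrl and from 0.388 to 0.495 in βCat-GOF, with 5 libraries below every Ctrl library and only 1387-8 within the Ctrl values. Its log2 difference of -0.27 ± 0.06 passed the adjustment (SE; exact permutation p = 0.0065, adjusted p = 0.045). The *H2-Ab1* to *Cd74* ratio did not separate the groups, at 0.341 to 0.37 in Ctrl and 0.327 to 0.402 in βCat-GOF (log2 difference 0.04 ± 0.05, exact permutation p = 0.45). The *Ciita* to *Cd74* ratio had the largest log2 difference, -0.70 ± 0.32 (exact permutation p = 0.048, adjusted p = 0.11). For *H2-DMa*, *H2-DMb1* and *H2-DMb2* the unadjusted exact permutation p was at least 0.16. The library 1369-4, which has no *H2-Ea-ps* reads, was at 0.567 for *H2-Aa* and 0.409 for *H2-Eb1*. The 4 libraries with such reads ran from 0.551 to 0.746 for *H2-Aa* and from 0.388 to 0.446 for *H2-Eb1*. The highest of them in both, 1369-3, lay within the Ctrl values for *H2-Aa*. Without those 4 libraries the log2 differences were -0.22 for *H2-Aa* and -0.18 for *H2-Eb1* (exact permutation p = 0.14 and 0.21, with 2 against 6 libraries). With libraries of a shared stem summed, the *H2-Aa* difference was -0.21 (exact permutation p = 0.079).

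**Figure D3:**
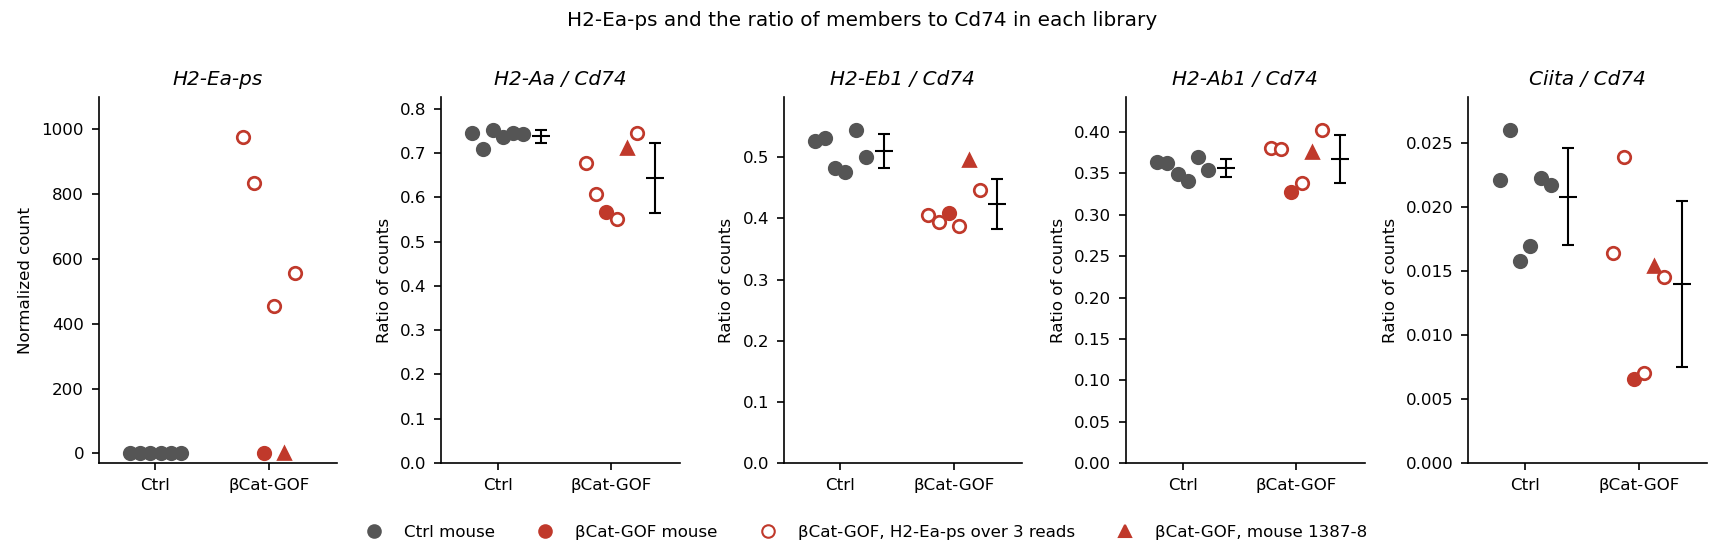
Normalized count of *H2-Ea-ps* (left panel) and the ratio of the counts of *H2-Aa*, *H2-Eb1*, *H2-Ab1* and *Ciita* to those of *Cd74* in each library, with symbols as in the plot of normalized counts and bars for the mean ± SD (n = 6 each) of the ratios. *H2-Ea-ps* is between 455.5 and 976 in 4 βCat-GOF libraries and near 0 in the other 8, and the *H2-Eb1* to *Cd74* ratio is below every Ctrl library in 5 of 6.

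The other genes of the pathway were read from lists. Of the other class II region genes, *H2-Oa* and *H2-Ob*, chains of DO, which restrains DM, were the 2 tested. *H2-Oa* was at 20.1 ± 4.85 normalized counts in Ctrl and 9.84 ± 7.77 in βCat-GOF (SD, n = 6 each; log2 fold change -1.0, adjusted p = 0.17 by edgeR), and *H2-Ob* was at 31.5 ± 6.71 and 19.0 ± 13.4 (log2 fold change -0.71, adjusted p = 0.28). Neither passed. Of 16 genes that encode RFX, NF-Y and CREB proteins or interferon-γ signaling, 0 passed, and their median log2 fold change was -0.04. Here *Spi1*, a myeloid transcription factor, was at -0.56 (adjusted p = 0.23 by edgeR), *Nfyc*, an NF-Y subunit, at 0.34 (adjusted p = 0.17) and *Socs1*, an inhibitor of the signal, at 0.59 (adjusted p = 0.42). Of 16 genes of antigen processing and class II turnover, 0 passed either, with a median of -0.03. The lowest was *Ctss*, the cathepsin that trims the invariant chain, at 2261 ± 592 normalized counts in Ctrl and 1594 ± 320 (319.8) in βCat-GOF (log2 fold change -0.51, adjusted p = 0.11 by edgeR). *March1*, a ligase that removes class II from the surface, was at -0.46 (adjusted p = 0.27), *Ctsc* at -0.27 (adjusted p = 0.39) and *Ctsl* at 0.37 (adjusted p = 0.44).

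CD74 is also a surface receptor for the cytokine MIF. Of the 3 genes tested from this side, 1 rose past the cut-offs, which 1.48% of all genes did. *Cxcr4*, a chemokine receptor that pairs with CD74, rose from 590 (589.8) ± 234 to 1392 ± 653.5 normalized counts (SD, n = 6 each; log2 fold change 1.24 ± 0.32, adjusted p = 0.048 by edgeR). Its log2 fold change was 1.42 without the 4 *H2-Ea-ps* libraries (adjusted p = 0.049), and the call was lost without 1387-8 (1.11, adjusted p = 0.093) and with libraries of a shared stem summed (1.18, adjusted p = 0.1). *Cd44*, the signaling partner, was at 1.1 ± 0.34 (adjusted p = 0.091) and *Mif* at 0.00 (adjusted p = 0.99). Of 4 costimulatory genes tested, *Icosl*, which signals to T cells through ICOS, fell from 824 ± 174 to 551 ± 108 (log2 fold change -0.59 ± 0.15, adjusted p = 0.043 by edgeR). This call was lost without 1387-8 (-0.52, adjusted p = 0.091), without the 4 libraries (-0.65, adjusted p = 0.14) and with stem pairs summed (-0.51, adjusted p = 0.099). *Cd40* was at -0.50 (adjusted p = 0.32), *Cd274* at -0.15 (adjusted p = 0.62) and *Cd86* at -0.06 (adjusted p = 0.91).

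Class I presentation, which shows cytosolic peptides to CD8 T cells, was read beside class II. Of 9 genes, 6 fell past the cut-offs, and the median log2 fold change of the list was -0.71. *B2m*, the light chain, fell by 0.71 on the log2 scale (adjusted p = 0.0032 by edgeR), and so did *Tap1* of the peptide transporter by 0.81 (adjusted p = 0.0069), *H2-D1*, a heavy chain, by 0.73 (adjusted p = 0.031), and the immunoproteasome genes *Psmb8* by 0.63 (adjusted p = 0.034) and *Psmb9* by 0.83 (adjusted p = 0.036). *Nlrc5*, which does for class I what *Ciita* does for class II, fell by 1.03 (adjusted p = 0.025). Of these calls, 3 held without 1387-8 (*B2m*, *Tap1* and *H2-D1*), 3 without the 4 *H2-Ea-ps* libraries (*B2m*, *Psmb9* and *Nlrc5*) and 3 with stem pairs summed (*B2m*, *Tap1* and *Nlrc5*). Only *B2m* passed in every one of these fits, and *Psmb8* passed in none of them, at -0.63, -0.71 and -0.62. Whether the change of class I differs from that of class II was not tested.

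**Figure D4:**
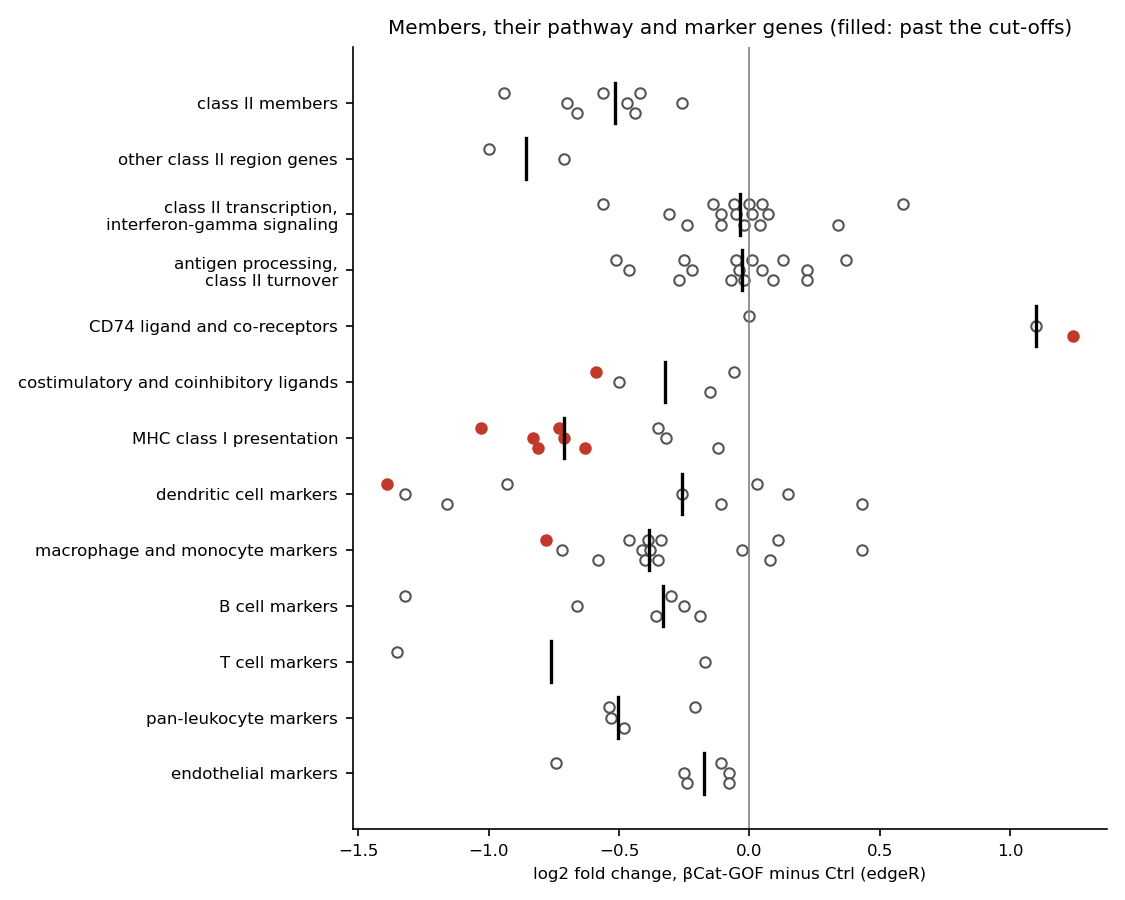
Log2 fold change of every tested gene, βCat-GOF minus Ctrl (horizontal axis, edgeR), by list (rows), with filled circles for genes past the cut-offs and a vertical bar at the median of each list. The 8 members lie between -0.94 and -0.26 with none filled, and 6 of 9 class I genes are filled.

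Among markers of the leukocytes that carry class II, *Itgax* and *Adgre1* passed the cut-offs and the others did not. The part of these cells in the levels of the members was not tested. The 10 dendritic cell markers summed to between 629 and 793 normalized counts in Ctrl and between 443 and 609 in βCat-GOF, and none was at 0 in any library. Most of the sum was *Itgax* and *Zbtb46*, and *Zbtb46* differed little, at 351 in Ctrl and 327 in βCat-GOF (means, log2 fold change -0.11, adjusted p = 0.65 by edgeR). *Itgax*, which encodes CD11c, fell from 211 ± 45.6 to 80.9 ± 19.4 (SD, n = 6 each; log2 fold change -1.39 ± 0.20, adjusted p = 0.002 by edgeR), with every βCat-GOF library below every Ctrl library. It also passed without 1387-8 (-1.43, adjusted p = 0.004), without the 4 *H2-Ea-ps* libraries (-1.43, adjusted p = 0.029) and with stem pairs summed (-1.32, adjusted p = 0.0073). Of the 9 dendritic markers tested, 6 were lower and 3 higher, from -1.39 to 0.43 with a median of -0.26. After *Itgax*, the 3 farthest from 0 were all lower and did not pass: *Xcr1* and *Clec9a*, of conventional type 1 cells, were at -1.32 (adjusted p = 0.095) and -0.93 (adjusted p = 0.34), and *Cd209a* at -1.16 (adjusted p = 0.35). The 14 macrophage and monocyte markers summed to between 10601 and 19689.5 in Ctrl and between 8667 and 14346 in βCat-GOF. Among them *Adgre1*, which encodes F4/80, fell from 359 ± 76.9 to 210.0 ± 60.0 (log2 fold change -0.78 ± 0.20, adjusted p = 0.046 by edgeR), but it did not pass without the 4 libraries (-0.42, adjusted p = 0.29) or with stem pairs summed (-0.73, adjusted p = 0.13). Of the 14 markers, 11 were lower and 3 higher, from -0.78 to 0.43 with a median of -0.38. *Cd68* was at -0.72 (adjusted p = 0.12), *Ccr2* at -0.58 (adjusted p = 0.35) and *Ly6c2* at -0.46 (adjusted p = 0.48). The 4 pan-leukocyte genes summed to between 1476 and 2313 in Ctrl and between 1179 and 1587 in βCat-GOF, with *Cd53* at -0.54 (adjusted p = 0.14), *Ptprc*, which encodes CD45, at -0.53 (adjusted p = 0.14), *Laptm5* at -0.48 (adjusted p = 0.049, below the fold cut-off) and *Coro1a* at -0.21 (adjusted p = 0.49).

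Markers of lymphocytes were read next. The 7 B cell markers summed to between 1288 and 2770.3 in Ctrl and between 543 and 1987 in βCat-GOF, nearly all of it *Ighm*, the immunoglobulin heavy chain (log2 fold change -0.66, adjusted p = 0.21 by edgeR). *Cd22* was at -1.32 (adjusted p = 0.011) with a base mean under the cut-off and *Cd79a* at -0.36 (adjusted p = 0.71). Of the 8 T cell markers, which summed to between 68.3 and 106 in Ctrl and between 44.7 and 72.7 in βCat-GOF, 2 were tested: *Cd4*, also made by some macrophages, was at -1.35 (adjusted p = 0.033, base mean under the cut-off) and *Lag3* at -0.17 (adjusted p = 0.76). Of 6 endothelial markers none passed, with *Vwf* at -0.74 (adjusted p = 0.078), *Plvap* at -0.25 (adjusted p = 0.36), *Kdr* at -0.24 (adjusted p = 0.24) and *Emcn* at -0.11 (adjusted p = 0.61). Of 10 adrenal markers 1 passed, *Akr1b7*, which rose by a log2 fold change of 1.48 (adjusted p = 0.046). It passed without the 4 libraries (1.69, adjusted p = 0.0029) and with stem pairs summed (1.7, adjusted p = 0.042) and not without 1387-8 (1.45, adjusted p = 0.081), while *Gli1* was at 0.53 (adjusted p = 0.21), *Star* at 0.49 (adjusted p = 0.19) and *Chga* at -0.47 (adjusted p = 0.29).

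The members were then read per leukocyte transcript, as ratios to *Ptprc* and to *Itgax* in the same library (16 ratios). Against *Ptprc*, the differences of the class II chains and *Cd74* were smaller than the spread between mice. The *H2-Aa* ratio was 9.9 ± 2.39 in Ctrl and 9.13 ± 2.41 in βCat-GOF (SD, n = 6 each; log2 difference -0.12 ± 0.20, exact permutation p = 0.55), and the *Cd74* ratio was 13.4 ± 3.03 and 14.4 ± 4.03 (log2 difference 0.08 ± 0.21, exact permutation p = 0.69). The *Ciita* ratio was 0.272 ± 0.0428 and 0.186 ± 0.0717 (log2 difference -0.62 ± 0.24, exact permutation p = 0.032, adjusted p = 0.13). Against *Itgax* all 8 ratios had a higher mean in βCat-GOF, most of all that of *H2-DMa*, at 1.01 ± 0.376 in Ctrl and 2.13 ± 0.478 in βCat-GOF (log2 difference 1.1 ± 0.24, exact permutation p = 0.0043, adjusted p = 0.069). *Itgax* itself had a log2 fold change of -1.39, below that of every member (-0.94 to -0.26), and *H2-DMa* was the member that differed least. The direction and order of the *Itgax* ratios therefore follow from the fall of the denominator and say nothing more about the members. None of the 16 ratios passed after Benjamini-Hochberg adjustment, and 5 had an unadjusted exact p under 0.05 (*Ciita* to *Ptprc*, and *H2-Ab1*, *H2-DMa*, *H2-DMb1* and *Cd74* to *Itgax*).

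Within each group the class II chains and the invariant chain followed each other closely from mouse to mouse. Relations of *H2-Ab1* with 12 genes were computed on log2 CPM in each group of 6 libraries, 24 in all, with exact permutation p-values adjusted over the 24. In Ctrl, *H2-Ab1* and *H2-Eb1* had r = 0.999 and rho = 1.0 (adjusted exact p = 0.034 for each), and r was 0.997 without the 2 libraries farthest from the median of *H2-Eb1*. In βCat-GOF this pair had r = 0.98 (adjusted exact p = 0.038, rho = 0.829, adjusted exact p = 0.13), or 0.894 without the 2 farthest. *Cd74* had r = 0.997 in Ctrl (adjusted exact p = 0.034, rho = 0.943, adjusted exact p = 0.068) and 0.976 in βCat-GOF (adjusted exact p = 0.038, rho = 0.829, adjusted exact p = 0.13), and 0.995 and 0.919 without the 2 farthest libraries. *H2-Aa* had r = 0.998 and 0.987 in the 2 groups (adjusted exact p = 0.034 and 0.038, rho = 0.943 in both, adjusted exact p = 0.068), or 0.997 and 0.973 without the 2 farthest. *Ciita* followed more loosely, with r = 0.824 in Ctrl and 0.803 in βCat-GOF (adjusted exact p = 0.072 and 0.075, rho = 0.771 in both, adjusted exact p = 0.16), and r = 0.617 and 0.616 without the 2 farthest libraries. *H2-DMa* had r = 0.908 in Ctrl (adjusted exact p = 0.042) and 0.852 in βCat-GOF (adjusted exact p = 0.075), and 0.949 and 0.873 without the 2 farthest libraries. *H2-DMb1* had r = 0.943 in Ctrl (adjusted exact p = 0.045) and 0.865 in βCat-GOF (adjusted exact p = 0.096), but the latter turned to -0.377 without the 2 farthest libraries and so rests on them. *H2-DMb2*, at its low counts, had r = 0.51 in Ctrl and 0.736 in βCat-GOF, and neither passed (adjusted exact p = 0.37 and 0.096).

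Among leukocyte genes, *Adgre1* was the one that tracked *H2-Ab1* in Ctrl, with r = 0.966 and rho = 1.0 (adjusted exact p = 0.034 for each, r = 0.95 without the 2 farthest libraries). In βCat-GOF its r was 0.831 (rho = 0.714, adjusted exact p = 0.072 and 0.20) and fell to 0.329 without the 2 farthest libraries, so that relation rests on them. *Itgax*, the gene with the firmest group difference among the leukocyte markers, had no relation with *H2-Ab1* that passed in either group (r = -0.514 in Ctrl and 0.113 in βCat-GOF, adjusted exact p = 0.37 and 0.82, rho = -0.143 and 0.086), and r turned to 0.738 and 0.698 without the 2 farthest libraries. *Ptprc* had r = 0.561 in Ctrl and 0.784 in βCat-GOF (adjusted exact p = 0.36 and 0.072, rho = 0.543 and 0.886), or -0.058 and 0.817 without the 2 farthest. *Cd79a*, a B cell gene, had r = 0.571 and -0.26 (adjusted exact p = 0.32 and 0.65, rho = 0.486 and -0.143), or 0.446 and -0.632 without the 2 farthest.

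**Figure D5:**
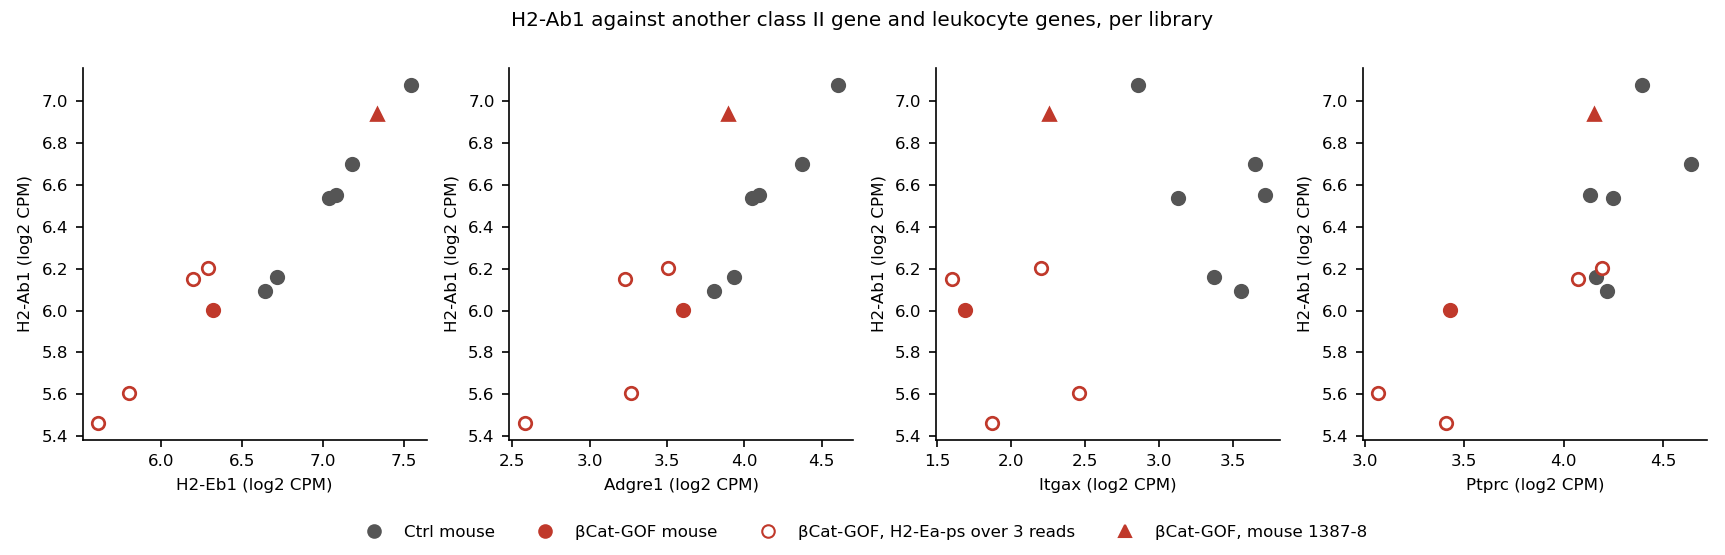
*H2-Ab1* (vertical axes, log2 CPM) against *H2-Eb1*, *Adgre1*, *Itgax* and *Ptprc* (horizontal axes, log2 CPM) in each library, with symbols as in the plot of normalized counts. The points of *H2-Eb1* and, in Ctrl, of *Adgre1* lie near a line, while the *Itgax* values of the 2 groups lie apart.

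Across the 12 libraries, with group means taken off, the 28 pairs of members had Pearson r between 0.206 and 0.99 and a median of 0.83, given as a description. Leaving aside *Ciita* and *H2-DMb2*, the lowest of the remaining 15 pairs was 0.821. Of 11425 other genes with a base mean above 100, the 10 most like *H2-Aa*, *H2-Ab1* and *H2-Eb1*, by the median of the 3 values of r over the same 12 libraries, included *2010107G23Rik* (0.929), *Mgl2* (0.922), *Cd52* (0.919), *Plbd1* (0.91), *1500015O10Rik* (0.896), *Gatm* (0.893), *Adgre1* (0.873), *Ccdc3* (0.869) and *G0s2* (0.863). *Mgl2* is a lectin of macrophages and dendritic cells and *Cd52* a leukocyte surface peptide, with log2 fold changes of -0.24 (adjusted p = 0.66 by edgeR) and -0.55 (adjusted p = 0.099). One of the 10 differed between the groups in the other direction: *1500015O10Rik* rose in βCat-GOF by a log2 fold change of 1.24 (adjusted p = 0.0034 by edgeR).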

How the data were processed

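RNA of whole adrenals from 6 Ctrl and 6 βCat-GOF female mice was sequenced from TruSeq mRNA libraries. Per the paper's methods, the authors removed adapters, placed the reads on mm10 by STAR and took only those with 1 position into the gene counts of featureCounts 1.4.4. The authors deposited the raw counts, and beside them a signal table scaled by 1 factor per library. These factors were 0.9545 to 0.9758 times those of DESeq2, and the signal served only for this check. The annotation release is not given in the sources used here. All columns were mapped to samples by their labels.

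The counts were tested with edgeR 4.0.16 (TMM, filterByExpr, quasi-likelihood test, two-sided, group as the only term; R 4.3.3), and p was adjusted by Benjamini-Hochberg over 14953 genes. SE is the log2 fold change over the square root of F. Tested on simulated counts of this comparison, this step recovered 168 of 200 changed genes at an adjusted p under 0.05, with 7 false calls among 14826 genes. All 200 were drawn from genes above a minimum CPM and changed by the same fold, larger than that of any member with all 12 libraries. The share recovered therefore does not give the power for changes of the size seen in the members. The study used DESeq2. Normalized counts are counts over median-of-ratios factors of DESeq2 1.42.0. Log2 CPM had a prior count of 2. Exact permutation tests (scipy 1.17.1) were two-sided over the 924 splits of 12 libraries, or all pairings of 6. Floors cover counting error only, while the SD and SE values include the spread between libraries. Positions came from GENCODE M21 on GRCm38 (37607 of 39017 identifiers), promoters from RefSeq, and copies from blastn 2.17.0 (at least 95% identity over 10% of a transcript).

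The members and lists were chosen with earlier results of these data known. Named genes are the members, every listed gene past the cut-offs, up to 4 tested genes of each list with the largest absolute change, the 10 genes most like the chain genes, those of the relations and *Ctnnb1*. A few genes that this rule names are not reported here. *H2-Ea-ps*, *H2-Q1*, *Th* and the H2 genes outside the members that hold the promoter pair were named after their values were seen. Alternatives were DESeq2 without shrinkage and with its prior, limma-voom 3.58.1, DESeq2 factors in edgeR, no filter, at least 10 counts in every library, 1 surrogate variable (sva 3.50.0), summing libraries of a shared stem, leaving out 1387-8 or each library, and an adjusted p alone. The fit without the 4 *H2-Ea-ps* libraries and the ratios to *Cd74* were added after the data were seen.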

Additional observations from a re-analysis of the deposited data

Results flagged for a closer look

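Within groups of 6 libraries, a library was picked out where its gap to the nearest other, divided by the range of the group, exceeded the 95% limit of Dixon's test. Of 30 groups examined (8 members and 7 ratios to *Cd74*, in 2 groups), 5 held such a library, where chance gives about 1 in 20. In 4 of them it was the βCat-GOF library 1387-8, above the others. The members vary together across libraries, so the 30 groups are not independent and the 5 cannot be weighed against 1 in 20. It had 4664 normalized counts of *H2-Aa* against 2555 in the next library, 2462 of *H2-Ab1* against 1440.1, 3241 of *H2-Eb1* against 1621, and 214 of *H2-DMb1* against 115. The fifth was the lowest *H2-Aa* to *Cd74* ratio among Ctrl, 0.708 in 1367-1, with the next at 0.736.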

How the results depend on the processing

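The members were lower in βCat-GOF in 174 of 175 values under the alternatives, the exception being *H2-DMb2* without the 4 *H2-Ea-ps* libraries (0.14). The fit without 1387-8 is counted 2 times among them. The fits share most libraries and the members vary together, so these values are not independent. The number of members past the cut-offs, and at an adjusted p under 0.05, was 0 under every alternative except without 1387-8, where it was 2, so it ranged from 0 to 2 when each library was left out. The median log2 fold change of the members ranged from -0.74 to -0.40 when 1 library was left out and was -0.12 without the 4 libraries. Over all genes, the count lower past the cut-offs (130) was 280 (DESeq2 without shrinkage), 254 (with prior), 80 without 1387-8 and 228 with an adjusted p alone, and ranged from 61 (without 1367-10) to 223 (without 1369-2ear), with 63 without 1369-3. At least 10 counts in every library removed *H2-DMb2*.

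Of the ratios to *Cd74*, those of *H2-Eb1* and *H2-Aa* kept an unadjusted exact permutation p under 0.05 when any 1 library was left out (log2 differences -0.32 to -0.25 and -0.25 to -0.16). These p-values were not adjusted over the ratios, so they do not show that the adjusted call for *H2-Eb1* would hold. With stem pairs summed the *H2-Eb1* value was -0.27 and the *H2-Aa* value -0.21 (p = 0.032 and 0.079, exact permutation, unadjusted). Without the 4 libraries they were -0.22 for *H2-Aa* and -0.18 for *H2-Eb1* (2 against 6 libraries, where p cannot go below 2 in 28), and those of *H2-Ab1* (-0.02), *H2-DMa* (-0.13) and *H2-DMb2* (0.22) changed sign. The *H2-DMb2* ratio also changed sign without 1367-1-2 (0.06), 1367-7 (0.06), 1369-2 (0.09) or 1369-3 (0.05), in a range of -0.15 to 0.09. The cause was not tested. *Ciita* and *H2-DMb2* are limited by depth, at 13 to 161 and 6 to 35 reads per library. No paired analysis was possible because the labels give the groups no shared replicate numbers.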
